A study of Mus musculus with 24 samples.

Results

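The genes described here are the HGF, MET and plasminogen activator axis of mouse liver, 9 genes chosen by name for their place in one pathway, with earlier results of these data known. They are 9 of the 24411 genes counted, and all 9 were found by symbol. Hepatocyte growth factor (HGF, gene *Hgf*) is made largely by non-parenchymal liver cells as an inactive precursor that is stored in the matrix. Serine proteases cut it into its active form, which binds the receptor tyrosine kinase MET on hepatocytes and drives their survival, motility and division. The axis therefore holds the ligand (*Hgf*), the receptor (*Met*), the HGF activator (*Hgfac*), urokinase (*Plau*), the urokinase receptor (*Plaur*), tissue-type plasminogen activator (*Plat*), plasminogen (*Plg*) and the transmembrane Kunitz-type inhibitors HAI-1 (*Spint1*) and HAI-2 (*Spint2*). Urokinase and tissue-type plasminogen activator convert plasminogen into plasmin, which dissolves fibrin, and the pathway is known for clearing debris and releasing growth factors after acute liver damage.

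Polyadenylated RNA of whole liver was counted in 24 libraries from male mice 2.5 months old that had been fasted for about 16 h. The study asked how hepatocytes that stay mostly diploid, because the cell cycle factors E2f7 and E2f8 are deleted throughout life, withstand acetaminophen (APAP). By its account, deletion in adult mice leaves ploidy unchanged. In the LKO cohort of 18 libraries, LKO mice (KO in the labels) carried floxed *E2f7* and *E2f8* alleles, Alb-Cre and the R26R-mTmG reporter on a mixed, mostly FVB background, and controls (WT in the labels) were littermates without Cre. Single mice were taken at 0 h, without APAP. These were 4 control and 4 LKO mice, and in the HKO cohort 3 HKO mice (CRE in the labels), given AAV8-TBG-Cre at 2 months, and 3 NULL mice given AAV8-TBG-Null, all 6 carrying the same floxed alleles. Alb-Cre acts from late fetal life in hepatocytes and bile duct cells, whereas the TBG promoter is restricted to hepatocytes. Both genotypes of the LKO cohort then received 300 mg/kg APAP, a hepatotoxin that kills centrilobular hepatocytes, and at 12, 24, 48, 72 and 96 h each genotype is 1 library made of the RNA of 3 mice, so that a pool has no spread of its own. In whole liver, fewer cells of a type and less RNA per cell cannot be told apart.

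Reads on genes ranged from 12665686 to 19499897 per library, with a median of 16500386, and 3 counts in a library corresponded to 0.144 to 0.253 CPM (counts scaled to library size), a limit of counting error only. The summed hepatocyte markers, led by albumin, lay between 43540 and 127500 CPM in every library. Counts over the whole gene do not separate the deleted part and are no check of the deletion. They were 320 to 592 reads for *E2f8* in LKO mice against 189 to 320 in controls at 0 h, and 464 to 1310 in HKO against 235 to 382 in NULL mice, while *E2f7* had 0 to 66 reads in any library.

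At 0 h the members spanned several orders of magnitude on a scale of CPM per kilobase of merged exons, with hepatocyte-secreted plasminogen at the top and the plasminogen activators at the bottom. Over the 14 mice at 0 h, the median level was 799.7 CPM per kilobase for *Plg* (725.3 to 906). It was 39.9 for *Hgfac* (28.8 to 60.3), 23.6 for *Spint2* (18.9 to 33.1) and 12.4 for *Met* (9.37 to 15.2). Each of these genes was above the next in 14 of 14 mice, although the ranges of *Hgfac* and *Spint2* overlapped. The ligand *Hgf* followed at 0.657 (0.383 to 1.29), also above the next member in 14 of 14 mice. The last members were *Plaur* at 0.255 (0.126 to 0.532), *Spint1* at 0.240 (0.046 to 0.405), *Plau* at 0.173 (0 to 0.414) and *Plat* at 0.0936 (0.0221 to 0.144). Neighbours among these 4 genes were not separated, since *Plaur* was above *Spint1* in 7, *Spint1* above *Plau* in 9 and *Plau* above *Plat* in 10 of 14 mice. They rested on 0 to 23 reads per mouse.

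**Figure D1:**
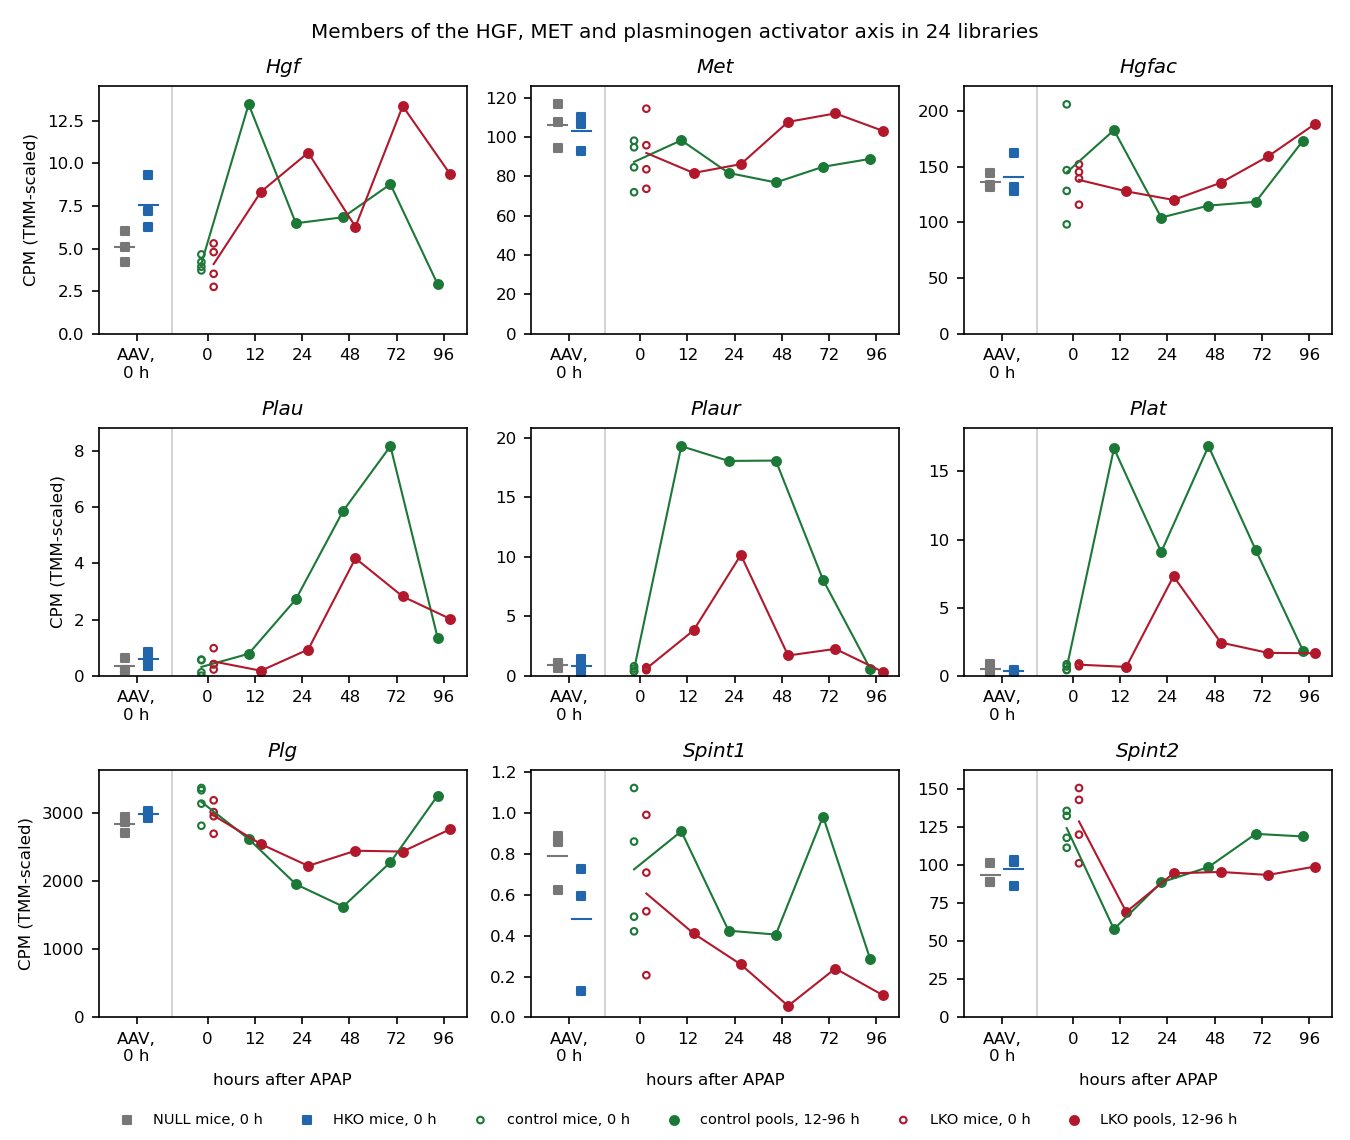
TMM-scaled CPM (y axis, from 0) of the 9 members against hours after APAP (x axis). Open circles are single control (green) and LKO (red) mice at 0 h, filled circles joined by lines are pools of 3 mice (the lines start at the mean of the 4 mice), and squares left of the grey line are NULL and HKO mice with the mean as a bar; the control pools of *Plaur* lie at 18.1 to 19.3 CPM from 12 to 48 h and the LKO pools at 1.70 to 10.15.

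Deletion of E2f7 and E2f8 without APAP was not accompanied by a called change in any member. To be called, a gene had to reach an adjusted p under 0.05 in edgeR's quasi-likelihood test together with a fold change of 1.5 or more. In LKO against control mice 0 of the 8 members tested were called (*Plau* had too few reads), where 0% of all 12426 genes were called, and 0 had an unadjusted p under 0.05. In HKO against NULL mice 0 of 7 were called (*Plau* and *Plat* were not tested), where 0.96% of 12397 genes were called. An unadjusted p under 0.05 was reached by 1 of the 7 (*Hgf*) and by 1598 of the 12397 genes, which are similar shares. DESeq2 called 0 members in both. *Met* was 87.4 ± 11.8 CPM (SD, n = 4) in control and 91.9 ± 17.5 (n = 4) in LKO mice, and 106.1 ± 11.2 (n = 3) in NULL and 103.3 ± 9.10 (n = 3) in HKO mice. The receptor thus differed by a log2 fold change of 0.08 (SE 0.16) in LKO and of -0.04 (SE 0.11) in HKO mice.

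The ligand was the one member whose groups did not overlap at 0 h, in the HKO cohort only, and it was not called. How many of all genes separate in this way was not counted. *Hgf* was at 6.24, 7.19 and 9.29 CPM in the 3 HKO mice and at 5.09, 4.21 and 6.00 CPM in the 3 NULL mice, so every HKO mouse lay above every NULL mouse. Its log2 fold change was 0.57 (SE 0.23), with an unadjusted p of 0.0332 and an adjusted p of 0.342 in edgeR's quasi-likelihood test, so it was not called. In the LKO cohort *Hgf* was 4.13 ± 0.403 CPM (SD, n = 4) in control and 4.09 ± 1.16 (n = 4) in LKO mice, a log2 fold change of 0.00 (SE 0.24). The difference between the LKO and the HKO effect on *Hgf* was -0.57 (SE 0.33) on the log2 scale, with an adjusted p of 1 in the same test. Of the 8 members tested for such a difference 0 were called and 0 had an unadjusted p under 0.05, where 0% of 12945 genes were called, and DESeq2 called 0. Stellate cell markers summed to 73.1, 149.3 and 162.4 CPM in HKO and to 100.1, 87.5 and 134.6 CPM in NULL mice and overlapped. Of these 8 markers 0 were called, with a median log2 fold change of 0.28 and values from -0.34 (SE 0.37, *Rgs5*) to 0.64 (SE 0.33, *Lrat*). Lymphocyte marker sums did not overlap, at 4.01 to 7.21 CPM in HKO and 1.20 to 2.83 CPM in NULL mice, with 0 of the 2 tested called. The part of these cells in the *Hgf* values was not tested. The cohorts also differ in the virus, in the age at deletion and in ploidy. The paper reports mostly diploid hepatocytes in LKO livers and mostly polyploid ones in HKO livers.

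The other members were close between genotypes at 0 h or too low to tell. *Plg* was 3158 ± 253.6 CPM (SD, n = 4) in control and 2958 ± 203.2 (n = 4) in LKO mice, a log2 fold change of -0.09 (SE 0.13). The HKO difference of *Plg* was 0.07 (SE 0.10) on the same scale. *Hgfac* gave -0.06 (SE 0.20) in LKO and 0.05 (SE 0.11) in HKO mice, and *Spint2* 0.05 (SE 0.14) and 0.06 (SE 0.11). The wider errors of *Plaur* (0.21, SE 0.40, in LKO and -0.11, SE 0.53, in HKO mice) and *Spint1* (-0.24, SE 0.49, and -0.70, SE 0.57) go with 2 to 23 reads per mouse. The parts of counting error and of the spread between mice in them were not tested. *Plat* gave 0.46 (SE 0.36) in LKO mice, at 0.807 ± 0.0848 CPM (SD, n = 4) against 0.590 ± 0.207 (n = 4) in controls.

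After APAP, the plasminogen activators *Plau* and *Plat*, the urokinase receptor *Plaur* and the ligand *Hgf* rose, whereas *Met* and *Hgfac* did not pass the test at any time. The time points were each compared with 0 h over both genotypes, in a fit with genotype and time over the 18 libraries of the LKO cohort, so that each time point rests on 1 control and 1 LKO pool. At 12 h 4 of 9 members were called, *Hgf*, *Plaur* and *Plat* higher and *Spint2* lower, where 31% of 13855 genes were called. At 24 h *Hgf*, *Plau*, *Plaur* and *Plat* were higher (25.6% of genes were called). At 48 h *Plau*, *Plaur* and *Plat* were higher and *Plg* lower (16.4%), and at 72 h *Hgf*, *Plau*, *Plaur* and *Plat* were higher (16.8%). At 96 h 0 of 9 were called, with 0.462% of genes called, and DESeq2 called 0 members. An unadjusted p under 0.05 was reached by 2 members (*Plau* and *Spint1*) and by 2140 of the 13855 genes. The median log2 fold change of the 9 members lay between -0.10 and 0.12 over the time points, beside -0.03 to 0.00 for all genes.

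Markers of other cells were called in both directions, beside 31%, 25.6%, 16.4% and 16.8% of all genes at 12, 24, 48 and 72 h. At 12 h the macrophage, endothelial and mesothelial and fibroblast counts below were near that share. So were the mesothelial and fibroblast counts at 24 and 48 h, the cholangiocyte counts at 24 and 72 h and the neutrophil count at 72 h. Of 8 Kupffer cell and macrophage markers tested 2 rose and 1 fell at 12 h, 3 rose and 2 fell at 24 h, and from 48 to 96 h the rises numbered 4, 5 and 2. The macrophage lysosomal gene *Cd68* rose by 2.03 (SE 0.28) at 12 h and 2.75 (SE 0.26) at 72 h on the log2 scale, and the monocyte chemokine receptor *Ccr2* by 1.94 (SE 0.30) at 24 h and 3.64 (SE 0.28) at 72 h. The resident Kupffer cell gene *Clec4f* fell by 1.07 (SE 0.37) at 12 h and by 1.28 (SE 0.37) at 24 h, and the macrophage gene *Adgre1* by 1.30 (SE 0.42) at 24 h. The summed level of these markers was 148.1 to 233.5 CPM in control mice, 135.4 to 694.1 CPM in control pools, 152.8 to 371.6 CPM in LKO mice and 133 to 806 CPM in LKO pools. Of 5 neutrophil markers tested 3 rose at both 12 and 24 h, 2 rose at 48 h and 1 rose at 72 h, with sums of 2.48 to 12.3 CPM in control mice, 9.07 to 31.75 CPM in control pools, 2.48 to 8.47 CPM in LKO mice and 2.52 to 30.35 CPM in LKO pools. Of 8 stellate cell markers 1 fell at 12 h, while 1, 2 and 5 rose at 24, 48 and 72 h. These counts are below the share of all genes at 12 and 24 h. Of 8 sinusoidal endothelial markers 2 rose and 1 fell at 12 h, 1 rose and 5 fell at 24 h, 1 rose and 2 fell at 48 h and 3 fell at 72 h. Of 6 mesothelial and fibroblast markers 2 fell at 12 h, 1 rose and 1 fell at 24 h, 1 fell at 48 h and 2 rose at 72 h. The mesothelial genes *Msln* (-2.48, SE 0.43) and *Upk3b* (-2.80, SE 0.46) fell at 12 h, and the fibroblast genes *Dpt* (2.47, SE 0.45) and *Cd34* (1.96, SE 0.39) rose at 72 h. Of 5 cholangiocyte markers *Sox9* rose at 12, 24 and 48 h (3.57, SE 0.29, at 12 h), while *Krt19* fell at 48 h (-1.45, SE 0.40) and *Epcam* at 72 h (-2.01, SE 0.62). Of 6 lymphocyte markers 0 were called at any time. The part of these cells in the rises of *Plau*, *Plat*, *Plaur* and *Hgf* was not tested.

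**Figure D2:**
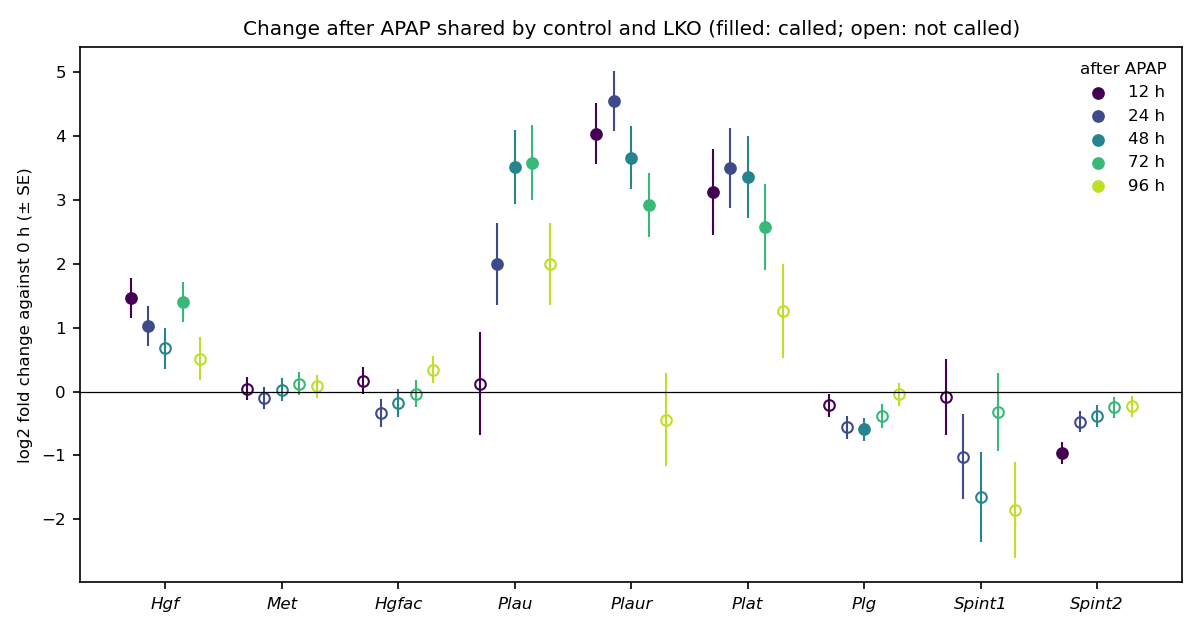
Log2 fold change against 0 h (y axis) of each member (x axis) at 12, 24, 48, 72 and 96 h after APAP, from 18 libraries of both genotypes, with bars for ± 1 SE; filled points were called and open points were not. *Plaur*, *Plat* and *Plau* reach log2 fold changes of 4.55, 3.50 and 3.59, while *Met* and *Hgfac* stay within 0.34 of 0.

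The urokinase receptor *Plaur*, a GPI-anchored protein that holds urokinase at the cell surface, had the largest change of the 9. It was at 0.354, 0.788, 0.589 and 0.369 CPM in the control mice at 0 h and at 0.551, 0.708, 0.461 and 0.660 CPM in the LKO mice. The control pools reached 19.3, 18.05, 18.1, 8.05 and 0.567 CPM at 12, 24, 48, 72 and 96 h. The LKO pools were at 3.81, 10.15, 1.70, 2.25 and 0.329 CPM at the same times. In both genotypes the 4 pools from 12 to 72 h thus lay above all 4 mice at 0 h, and at 96 h the control pool was back within their range and the LKO pool below it. The shared log2 fold change was 4.04 (SE 0.48) at 12 h, 4.55 (SE 0.47) at 24 h, 3.66 (SE 0.49) at 48 h and 2.92 (SE 0.50) at 72 h. The adjusted p in edgeR's quasi-likelihood test ran from 9.39e-06 at 24 h to 0.000598 at 72 h, and the 96 h value was -0.44 (SE 0.73). The 12 and 24 h calls were kept when any 1 library was left out. Without the control pool of that time the calls were lost at 48 h (log2 fold change 2.00, adjusted p 0.0811) and 72 h (2.50, adjusted p 0.06).

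Tissue-type plasminogen activator, the fibrin-bound activator encoded by *Plat*, followed a like course in control pools and a different one in LKO pools. Control mice had 0.413 to 0.842 CPM and LKO mice 0.691 to 0.895 CPM at 0 h. Control pools were at 16.7, 9.08, 16.9, 9.23 and 1.84 CPM at 12, 24, 48, 72 and 96 h, all above the 4 control mice. LKO pools were at 0.645, 7.30, 2.43, 1.68 and 1.65 CPM, so the 12 h pool was below all 4 LKO mice and the later pools above them. The shared log2 fold change was 3.12 (SE 0.68) at 12 h, 3.50 (SE 0.62) at 24 h, 3.36 (SE 0.65) at 48 h and 2.58 (SE 0.67) at 72 h, with adjusted p values of 0.00228, 8e-04, 0.00212 and 0.0131 in edgeR's quasi-likelihood test. The 24 h call was kept when any 1 library was left out. At 12 h this average of both genotypes rested on the control pool alone, without which the value was 0.20 (adjusted p 0.905). That pool also had the highest share of reads on no gene in the LKO cohort, at 13.6%. The next highest was the LKO pool of 12 h at 10.9%, and the part of this in the *Plat* value was not tested. Without the control pool of the time point the *Plat* calls at 48 h (2.14, adjusted p 0.193) and 72 h (1.61, adjusted p 0.456) were lost too.

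Urokinase itself, the soluble activator encoded by *Plau*, came later. It had 0.118, 0.573, 0 and 0.554 CPM in control mice, which is 0 to 9 reads, and 0.413, 0.980, 0.403 and 0.220 CPM in LKO mice at 0 h. Control pools climbed from 0.780 CPM at 12 h over 2.73 and 5.87 to 8.18 CPM at 72 h, and the 96 h pool had 1.35 CPM. LKO pools were at 0.176, 0.932, 4.18, 2.82 and 2.03 CPM, with the highest at 48 h. All 5 control pools lay above the 4 control mice at 0 h and 3 LKO pools above the 4 LKO mice, but the control pool of 12 h was below the highest LKO mouse. The shared log2 fold change of *Plau* was 0.12 (SE 0.81) at 12 h, 2.00 (SE 0.64, adjusted p 0.0284) at 24 h, 3.52 (SE 0.58, adjusted p 0.000595) at 48 h and 3.59 (SE 0.58, adjusted p 0.000361) at 72 h. At 96 h it was still 2.00 (SE 0.64), with an adjusted p of 0.16. The 48 h call was kept when any 1 library was left out. The 24 h call was lost without the control pool (1.23, adjusted p 0.42) or without the LKO pool (2.56, adjusted p 0.0627) of that time, and the 72 h call without the control pool (2.79, adjusted p 0.0593).

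The ligand rose less. *Hgf* was at 3.72, 4.66, 4.21 and 3.94 CPM in control mice at 0 h, and its control pools were at 13.45, 6.48, 6.84, 8.77 and 2.91 CPM from 12 to 96 h. In LKO mice it was at 2.76, 4.79, 5.30 and 3.52 CPM, and in LKO pools at 8.33, 10.6, 6.28, 13.35 and 9.38 CPM. Thus 4 control pools and all 5 LKO pools lay above the mice of their genotype, with the highest control pool at 12 h and the highest LKO pool at 72 h. The log2 fold change of *Hgf* was 1.46 (SE 0.31, adjusted p 0.00205) at 12 h, 1.02 (SE 0.32, adjusted p 0.0239) at 24 h, 0.67 (SE 0.33, adjusted p 0.162) at 48 h, 1.40 (SE 0.31, adjusted p 0.00485) at 72 h and 0.51 (SE 0.33, adjusted p 0.481) at 96 h. Calls for *Hgf* were lost at 12 h without the control pool (0.85, adjusted p 0.17), at 24 h without the control (1.28, adjusted p 0.0644) or the LKO pool (0.73, adjusted p 0.332), and at 72 h without the LKO pool (1.18, adjusted p 0.0882). At 96 h the value was 1.13 without the control pool and -0.49 without the LKO pool of that time, so its direction rests on 1 library. The stellate cell marker sum, for the cells known as a main source of HGF, was 117 to 153 CPM in control mice, 118 to 228 CPM in control pools, 86.1 to 168 CPM in LKO mice and 120 to 243 CPM in LKO pools, highest at 72 h in both genotypes; its part in the *Hgf* result was not tested.

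The receptor and the plasma activator of HGF stood apart from this. *Met* was between 72.0 and 114 CPM in the 8 mice at 0 h and between 76.9 and 112 CPM in the 10 pools, with log2 fold changes of -0.10 to 0.12 (SE 0.18) over the time points. *Hgfac* was between 98.2 and 205.8 CPM at 0 h and between 104.3 and 188.4 CPM in the pools, with log2 fold changes from -0.34 (SE 0.22) at 24 h to 0.34 (SE 0.21) at 96 h. For both genes every pool lay within the range of the 8 mice.

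The substrate and one inhibitor fell. *Plg* was at 3133, 3362, 2809 and 3329 CPM in control mice and at 2616, 1952, 1625, 2274 and 3251 CPM in control pools. In LKO mice it was at 3182, 2949, 2692 and 3009 CPM and in LKO pools at 2540, 2221, 2443, 2431 and 2757 CPM, so that 4 pools of each genotype lay below all mice at 0 h. Its log2 fold change was -0.56 (SE 0.18, adjusted p 0.0309) at 24 h, below the fold limit, and -0.59 (SE 0.18, adjusted p 0.0343) at 48 h. The 48 h call lay just past the limits and was lost without any of several single libraries, most clearly without the control pool of that time (-0.31, adjusted p 0.458), and with scaling by library size alone (-0.42, adjusted p 0.064). Some hepatocyte markers were called over the same times. Of 6 tested 2 fell at 12 h, 1 rose and 2 fell at 24 h, and 1 fell at 48 and at 72 h. The counts at 12, 48 and 72 h are near the share of all genes called (31%, 16.4% and 16.8%). The median log2 fold change of the list was 0.10, -0.39, -0.05 and -0.001 at 12, 24, 48 and 72 h. The hepatocyte transcription factor *Hnf4a* was lower at 24 h (-0.67, SE 0.23), 48 h (-0.88, SE 0.24) and 72 h (-0.83, SE 0.24), the urea cycle enzyme *Cps1* was lower at 24 h (-1.36, SE 0.28), and *Apoa1* was higher at 24 h (0.77, SE 0.28). Their part in the *Plg* result was not tested. *Plg* shares 420 exonic bases with *Slc22a3* on the other strand, and the counts used disregard strand. *Hgf* shares 484 exonic bases with the gene model *Gm43489* on the same strand, where reads of the pair cannot be told apart.

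Among the inhibitors, *Spint2* (HAI-2) was between 101.2 and 150.6 CPM in the 8 mice at 0 h. Its pools at 12 h were the lowest of the series, at 57.95 CPM in control and 69.3 CPM in LKO, both below every mouse. The log2 fold change at 12 h was -0.96 (SE 0.18, adjusted p 0.000659), and the later pools of *Spint2* were at 88.7 to 120.5 CPM. *Spint1* (HAI-1), which is expressed in bile duct epithelium, had 1 to 15 reads in each pool and log2 fold changes from -1.86 (SE 0.75, adjusted p 0.246) at 96 h to -0.09 (SE 0.60) at 12 h, none of which was called.

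The genotypes were then compared after APAP, over the 5 pairs of pools with the time point as a block. The urokinase receptor was lower in LKO livers, and it was the 1 member of 9 called, where 0.512% of 13659 genes were called. *Plaur* had a log2 fold change of -1.97 (SE 0.36, adjusted p 0.0487 in edgeR's quasi-likelihood test), and the LKO pool was the lower one at 5 of 5 times. With 65 against 297 reads the ratio of LKO to control CPM was 0.198 at 12 h (95% counting interval 0.149 to 0.259). At 24 h it was 0.563 (0.467 to 0.676), at 48 h 0.0938 (0.0624 to 0.136) and at 72 h 0.279 (0.195 to 0.394). At 96 h both pools were back at 6 and 8 reads, and the ratio of 0.580 (0.166 to 1.91) did not separate them. These intervals cover counting error in 1 library per genotype and not the spread between mice. The call was close to the limit: it was lost without either pool of 12, 48 or 72 h (adjusted p 0.088 to 0.122, log2 fold change -1.998 to -1.56), with scaling by library size alone (adjusted p 0.0732) and without the time block (adjusted p 0.764), while the log2 fold change stayed between -2.32 and -1.56 in every alternative run.

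**Figure D3:**
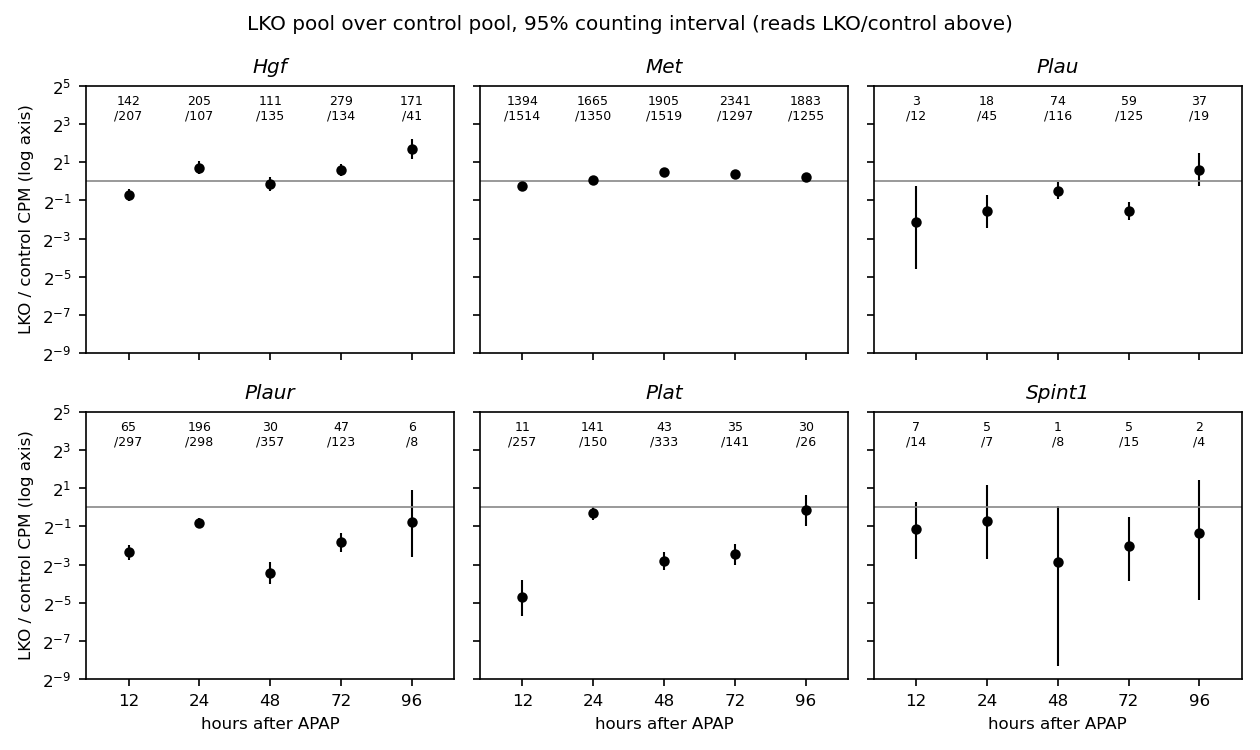
Ratio of LKO to control CPM (y axis, log2 axis) for 6 members at 12 to 96 h after APAP, 1 pool of 3 mice per genotype and time. Bars are 95% counting intervals and the numbers above are reads in the LKO pool over reads in the control pool; *Plaur*, *Plat* and *Spint1* lie below 1 at 5 of 5 times, and *Hgf* at 96 h lies at 3.23.

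The plasminogen activators were lower in most LKO pools too, without passing the test over the 5 pairs. *Plat* had a log2 fold change of -2.04 (SE 0.57, adjusted p 0.117), with the LKO pool lower at 5 of 5 times. At 12 h the 11 reads of the LKO pool stood against 257 in the control pool, a ratio of 0.0386 (0.0191 to 0.0703). At 24 h the *Plat* ratio was 0.804 (0.634 to 1.02) and at 48 and 72 h 0.144 (0.102 to 0.199) and 0.182 (0.122 to 0.264), so that 24 h stood apart from its neighbours. It was called with genes of few reads kept in the test (adjusted p 0.0286) and without the control pool of 96 h (-2.47, adjusted p 0.0432). *Plau* gave -0.94 (SE 0.38, adjusted p 0.246), lower in LKO at 4 of 5 times, with ratios of 0.342 (0.186 to 0.603) at 24 h, 0.712 (0.525 to 0.962) at 48 h and 0.345 (0.249 to 0.474) at 72 h. At 12 h the *Plau* ratio was 0.226 (0.0409 to 0.836), from 3 against 12 reads, and at 96 h it lay the other way at 1.51 (0.845 to 2.77), from 37 against 19 reads. *Spint1* gave -1.51 (SE 0.58, adjusted p 0.221), lower at 5 of 5 times, from 1 to 7 reads in LKO pools against 4 to 15 in control pools.

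The ligand, the receptor and the abundant members were not called. *Hgf* had a log2 fold change of 0.39 (SE 0.30, adjusted p 0.539) in LKO against control pools, and its direction varied with time. Its ratio was 0.619 (0.497 to 0.770) at 12 h, 1.64 (1.29 to 2.09) at 24 h, 0.918 (0.708 to 1.19) at 48 h, 1.52 (1.23 to 1.89) at 72 h and 3.23 (2.28 to 4.66) at 96 h. The 96 h control pool was below all 4 control mice at 0 h and the LKO pool above all 4 LKO mice. *Met* gave 0.16 (SE 0.15), with ratios from 0.831 at 12 h to 1.40 at 48 h, and *Hgfac*, *Plg* and *Spint2* gave 0.07 (SE 0.17), 0.10 (SE 0.18) and -0.09 (SE 0.15).

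Pool by pool, members past 2-fold were lower in LKO from 12 to 72 h, as were more of all genes past 2-fold. At 12 h *Plau*, *Plaur* and *Plat* were at least 2-fold lower in the LKO pool, where 22.7% of 14421 genes differed by this much in either direction, 1877 lower and 1401 higher. At 24 h it was *Plau* (9.23% of genes, 801 lower and 530 higher), at 48 h *Plaur*, *Plat* and *Spint1* (17.8%, 1516 lower and 1048 higher), and at 72 h *Plau*, *Plaur*, *Plat* and *Spint1* (14.6%, 1105 lower and 999 higher). At 96 h *Hgf* was at least 2-fold higher in LKO (11.7%, 702 lower and 984 higher). The 1 of 9 members at 24 h and at 96 h is near the share of all genes. Whether the response to APAP itself differed between genotypes was tested as the change from 0 h in LKO minus that in control. Of 9 members 0 were called, where 0% of 13855 genes were called. In that test *Plaur* gave -2.17 (SE 0.57, unadjusted p 0.0016, adjusted p 0.393), *Plat* -2.50 (SE 0.80, unadjusted p 0.00646, adjusted p 0.419) and *Plau* -1.61 (SE 0.85, adjusted p 0.575). These first 2 were the members with an unadjusted p under 0.05, beside 1307 of the 13855 genes, and DESeq2 called 0 members.

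Markers of other cells moved with part of this. The sum of 6 cholangiocyte markers was higher in the control pool at 5 of 5 times, at 131.8, 34.1, 27.0, 14.3 and 6.87 CPM from 12 to 96 h against 22.5, 15.2, 13.5, 7.94 and 5.65 CPM in LKO pools. Most of it was *Sox9*, a factor also induced in injured hepatocytes, at 122.3 CPM in the control and 19.6 CPM in the LKO pool of 12 h, while the duct keratin *Krt19* was at 2.01 and 1.88 CPM there. Over the 5 pairs 0 of the 5 cholangiocyte markers tested were called lower, with a median log2 fold change of -1.12. The 6 neutrophil markers counted summed to 16.1, 13.9, 31.75, 25.9 and 9.07 CPM in control pools and to 17.0, 30.35, 9.61, 8.47 and 2.52 CPM in LKO pools, so they were lower in LKO from 48 h on, and 0 of the 5 tested were called. The 8 Kupffer cell and macrophage markers summed to 156, 135.4, 216.9, 694.1 and 494.7 CPM in control and to 133, 149.8, 328.8, 806 and 184.7 CPM in LKO pools, with 0 of 8 called. Hepatocyte marker sums were 97160, 102900, 87130, 127500 and 101300 CPM in control pools and 58680, 77730, 94080, 95310 and 87040 CPM in LKO pools. Of these 6 markers 0 were called, with a median log2 fold change of -0.30. The part of these cells in the values of *Plaur*, *Plat*, *Plau* and *Spint1* was not tested. Stellate, sinusoidal endothelial, lymphocyte, and mesothelial and fibroblast marker sums in LKO pools lay between 120 and 243, 226 and 387, 2.07 and 5.99, and 42.0 and 79.9 CPM, and those in control pools between 118 and 228, 231 and 379, 1.10 and 6.31, and 55.2 and 85.3 CPM, with 0 markers of these lists called between genotypes.

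The promoters of *Plaur*, *Met* and *Spint1* are shown because all 3 hold the core letters bound by AP-1, the JUN and FOS factor family, while their transcripts differed in their course after APAP. RefSeq windows on GRCm38.p6, from 250 bases before to 50 after the start, matched 6 of the 9 members (7 windows, 2 of them for *Hgf*), and those of *Plau*, *Plat* and *Plg* are not shown. The motif TGACTCA, or TGAGTCA on the other strand, stands in 5.2% of all 32851 windows. It starts 69 bases before the start site in *Plaur*, 54 before in *Met* and 6 before in *Spint1*, and is in capitals here, 5′ to 3′ on the plus strand at chr7:24462233-24462532, chr6:17463707-17464006 and chr2:119237110-119237409.
Plaur: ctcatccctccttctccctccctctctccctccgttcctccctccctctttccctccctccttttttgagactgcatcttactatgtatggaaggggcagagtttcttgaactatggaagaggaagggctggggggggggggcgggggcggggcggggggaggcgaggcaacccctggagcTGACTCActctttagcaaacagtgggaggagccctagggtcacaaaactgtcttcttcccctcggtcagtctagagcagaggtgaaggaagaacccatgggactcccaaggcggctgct
Met: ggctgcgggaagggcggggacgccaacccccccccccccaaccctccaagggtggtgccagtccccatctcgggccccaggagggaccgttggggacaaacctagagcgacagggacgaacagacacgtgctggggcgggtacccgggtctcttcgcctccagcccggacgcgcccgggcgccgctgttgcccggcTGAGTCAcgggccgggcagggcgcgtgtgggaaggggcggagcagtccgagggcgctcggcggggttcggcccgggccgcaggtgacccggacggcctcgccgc
Spint1: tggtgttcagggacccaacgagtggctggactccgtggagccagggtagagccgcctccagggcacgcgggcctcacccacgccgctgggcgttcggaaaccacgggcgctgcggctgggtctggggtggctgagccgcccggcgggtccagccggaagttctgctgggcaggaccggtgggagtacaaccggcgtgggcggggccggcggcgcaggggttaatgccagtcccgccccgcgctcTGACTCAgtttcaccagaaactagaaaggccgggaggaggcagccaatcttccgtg
The *Hgf*, *Hgfac* and *Spint2* windows do not hold these letters. The Sp1 letters GGGGCGGGG, or their complement, occur in 11.4% of all windows, and in the *Plaur* window (3 overlapping matches from 112 to 101 bases before the start) and the *Spint2* window (125 and 20 bases before). E2F letters, TTTCCCGC, TTTGGCGC or TTTCGCGC on either strand, occur in 1.84% of all windows and in none of the 7 windows of members. *Plaur* with the AP-1 letters was 4.04 higher on the log2 scale at 12 h, *Met* with the same letters 0.05 and *Spint1* with them -0.09. Of the windows without them, *Hgf* gave 1.46, *Hgfac* 0.17 and *Spint2* -0.96 at 12 h.

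The genes lie apart in the genome. On GRCm38 with GENCODE vM21, *Plaur* is at chr7:24462484-24475968, *Spint2* at chr7:29256323-29281912, *Hgf* at chr5:16553495-16620152, *Hgfac* at chr5:35041509-35048461, *Met* at chr6:17463800-17573980, *Plau* at chr14:20836660-20843385, *Plat* at chr8:22757727-22782844, *Plg* at chr17:12378608-12419385 and *Spint1* at chr2:119237362-119249527. All 9 are annotated as protein-coding.

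Other genes of the pathway were read from 5 lists by role, and their counts stand beside 31%, 25.6%, 16.4% and 16.8% of all 13855 genes called in either direction at 12, 24, 48 and 72 h. As an alternative chosen after seeing the data, their 47 calls were repeated without each library in turn, and 12 were kept throughout while 35 were lost without at least 1 library, in most cases a pool of the time point itself. Those kept were *F11*, *Habp2*, *Itgb3*, *Sdc1*, *Ptpn11* and *Ptpn1* at 12 h, *S100a10* at 24 h, *Cd44* at 48 and 72 h and *Anxa2* at 24, 48 and 72 h. Among the proteases that activate HGF, HGFAC or plasminogen, 0 of 8 rose and 3 fell at 12 h, 5 fell at 24 h and 3 fell at 48 h, and at 72 h 1 rose and 2 fell, of which the count at 12 h is close to the share of all genes. Hepsin, a hepatocyte membrane protease encoded by *Hpn*, fell at 24, 48 and 72 h (-0.91, SE 0.19, at 24 h, on the log2 scale), and factor XII (*F12*), which can cut HGF, fell at the same times (-0.68, SE 0.16, at 72 h). Plasma kallikrein (*Klkb1*) fell by 1.19 (SE 0.29) at 12 h and by 1.21 (SE 0.29) at 24 h, the HGFA-like protease *Habp2* by 0.98 (SE 0.21) at 12 h, and factor XI (*F11*) by 1.39 (SE 0.24) at 12 h. Matriptase (*St14*) was lower at 24 h (-1.61, SE 0.57), thrombin (*F2*) at 48 h (-0.65, SE 0.17), and cathepsin B (*Ctsb*) was higher at 72 h (0.70, SE 0.19). The median log2 fold change of this list was -0.35, -0.70 and -0.65 at 12, 24 and 48 h, beside -0.01, 0.00 and 0.00 for all genes.

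Among the inhibitors of the activators, of plasmin and of fibrinolysis, 3 of the 6 tested over time fell at 12 h, 1 fell at 24 h and 1 rose at 48 h, and 0 were called at 72 or 96 h. The counts at 24 and 48 h are below or near the share of all genes. Those that fell at 12 h were *Serpine2*, which encodes protease nexin-1 (-1.80, SE 0.62), the plasmin inhibitor *Serpinf2* (-0.81, SE 0.21) and the fibrinolysis inhibitor *Cpb2* (-0.99, SE 0.36). *Serpine2* was also lower at 24 h (-1.91, SE 0.62), and *Serpina5*, the protein C inhibitor, was higher at 48 h (1.43, SE 0.39). The median log2 fold change of the list was -0.49 at 12 h and -0.41 at 24 h, beside -0.01 and 0.00 for all genes. Between genotypes over the 5 pairs 0 of the 5 tested were called.

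Surface partners of plasminogen and urokinase held most of the pathway's other increases. Of 9 tested, 4 rose and 1 fell at 12 h, 4 rose and 1 fell at 24 h, 5 rose at 48 h and 2 rose at 72 h, the last close to the share of all genes. Annexin A2 (*Anxa2*) and its partner p11 (*S100a10*) form a cell-surface site for plasminogen and tissue-type activator. *Anxa2* was at 9.35 to 11.7 CPM in control and 7.99 to 13.0 CPM in LKO mice at 0 h. Its control pools were at 54.9, 294.9, 278.6, 192.3 and 24.6 CPM and its LKO pools at 7.21, 86.1, 84.3, 51.6 and 19.0 CPM. *Anxa2* rose by 3.91 (SE 0.37) on the log2 scale at 24 h, and it was lower in LKO over the 5 pairs (-1.76, SE 0.29, adjusted p 0.0385), the 1 call among 9 partners. This call was lost without any 1 of the 8 pools of 12 to 72 h (adjusted p up to 0.0922), and leaving out any of the 10 pools gave log2 fold changes of -2.09 to -1.48. The 12 h rise of *Anxa2* (1.21, SE 0.42) was -0.14 without the control pool. *S100a10* rose by 2.605 (SE 0.32) at 24 h and gave -1.06 (SE 0.25, adjusted p 0.0903) between genotypes. The integrin chains *Itgb3* (1.69, SE 0.34) and *Itgav* (0.73, SE 0.25) rose at 12 h and were called to 48 h. The plasminogen receptor *Plgrkt* was lower at 12 h (-1.16, SE 0.32) and higher at 48 and 72 h (1.10, SE 0.27, at 72 h), and the clearance receptor *Lrp1* was lower at 24 h (-1.05, SE 0.25).

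**Figure D4:**
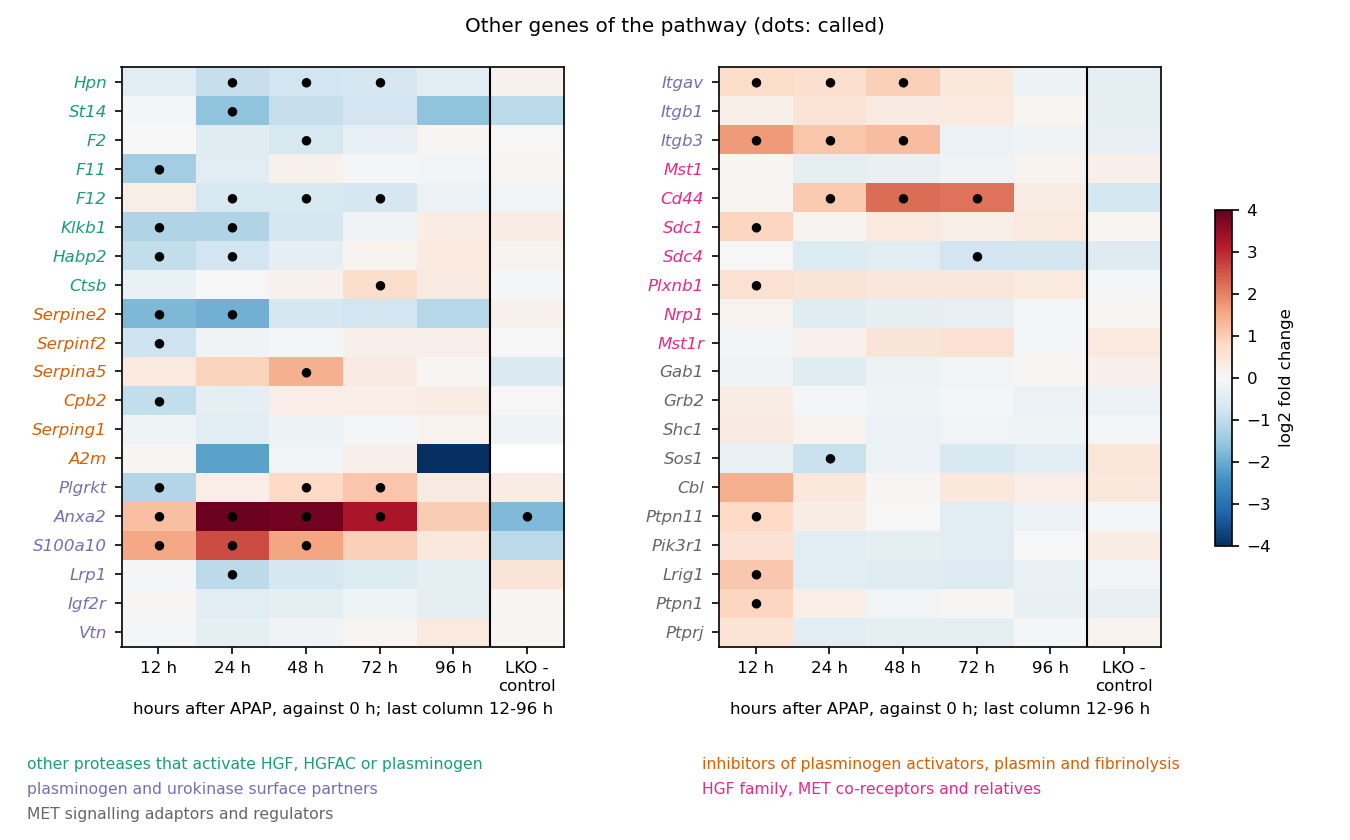
Log2 fold changes (colour scale, from -4 to 4) of the other genes of the pathway, with gene names coloured by list. Columns are 12 to 96 h against 0 h over both genotypes and, right of the line, LKO against control over 12-96 h, and dots mark called genes; *Anxa2*, *S100a10* and *Cd44* carry the largest called increases, and *Anxa2* alone is called between genotypes.

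On the side of MET, *Cd44*, whose variant form is a co-receptor of MET, was at 3.22 to 5.44 CPM in the 8 mice and rose by 1.06 (SE 0.25) at 24 h, 2.25 (SE 0.24) at 48 h and 2.18 (SE 0.24) at 72 h, with 27.2 CPM in the control and 16.1 CPM in the LKO pool at 48 h. Between genotypes it gave -0.70 (SE 0.17, adjusted p 0.0919). Of the 7 genes of this list *Sdc1* (0.85, SE 0.16) and *Plxnb1* (0.62, SE 0.20) also rose at 12 h, and *Sdc4* fell at 72 h (-0.77, SE 0.20), so that 1 or 2 of 7 were called at each time from 12 to 72 h. Of 10 MET adaptors and regulators 3 rose at 12 h, which were the MET-degrading *Lrig1* (1.07, SE 0.24) and the phosphatases *Ptpn1* (0.86, SE 0.17) and *Ptpn11* (0.78, SE 0.17), and 1 fell at 24 h, *Sos1* (-0.88, SE 0.25). The 3 of 10 at 12 h are close to the share of all genes called, and the list's median log2 fold change was 0.55 at 12 h and -0.24 at 24 h. At 0 h 0 genes of the 5 lists were called in LKO or HKO mice, and at 96 h 0 were called.

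Genes with the most similar course were sought by the root-mean-square (RMS) difference of log2 CPM, each relative to its own genotype at 0 h, over the 10 pools and 14421 genes. For *Plaur* the nearest gene was *Runx1*, which encodes a transcription factor (RMS 0.56), then *Clcf1* and *Nrg1*, while *Plaur* itself had an RMS change of 3.35. For *Plau* they were *Mcm6*, *Apitd1* and *Mcm5* (0.45 to 0.69, own change 2.72), of which *Mcm5* and *Mcm6* encode parts of the replicative helicase. *Plat* was nearest to *Fhl3* (0.89, own change 2.94). *Spint1* was nearest to the duct keratin *Krt19* (0.34, own change 0.98), and *Hgf* to *A830080D01Rik* (0.47, own change 1.14). The nearest genes to *Met*, *Hgfac*, *Plg* and *Spint2* were *Sclt1*, *Cdkn2aip*, *1300017J02Rik* and *Wbp1* at 0.12 to 0.19, but these members moved by 0.17 to 0.54 themselves. These distances describe 10 pools that share their libraries and carry no test.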

How the data were processed

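Reads were trimmed (Trimmomatic) and mapped to mm10 (STAR) by the authors, who deposited raw read counts per gene, not normalized. The annotation version was not given in the sources used here. The counts that disregard strand were analysed, without the entries that name no gene (no feature 7.30% to 14.7%, ambiguous 1.51% to 2.00%, multimapping 4.69% to 8.06% and unmapped 2.63% to 20.6% of reads). The text accompanying the data gives 4 mice per genotype at 0 h, and 3 NULL and 3 HKO libraries were held. All 9 members, the 5 pathway lists and the marker lists were chosen with earlier results of these data known. Genes were filtered with filterByExpr, scaled by TMM and tested on the whole table with edgeR 4.0.16 (R 4.3.3) by the quasi-likelihood test, 2-sided, with Benjamini-Hochberg adjustment, and the scripts were tested on simulated data. Levels are CPM scaled by TMM over all 24 libraries. Per-kilobase levels use merged exons of GENCODE vM21, in which 23376 of 24411 symbols were found. Ratios of pools carry exact 95% counting intervals, and their 2-fold limit used a prior count of 2. Mice at 0 h are separate animals. The p-values between genotypes after APAP rest on how the difference between genotypes varied over the time points, as no condition has a second pool. Those against 0 h rest on the spread of mice and pools together. Members were named throughout and other pathway genes where called, and 1 gene is not reported here. DESeq2 1.42.0, other scaling and filters, other designs and leaving out each library were alternatives. Replicate numbers are running numbers: samples of the same number correlated at -0.03 to 0.20 in the HKO cohort and -0.38 to 0.22 in the LKO cohort.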

Additional observations from a re-analysis of the deposited data

How the results depend on the processing

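Of 1776 alternative values of 86 fold changes of members, 1743 stayed on their side of the threshold, 29 lost and 4 gained a call, and 0 called values changed sign. Of the 1743, 59 were differences called neither way whose sign changed. The number of members called over 12-96 h between genotypes was 1, and it was 0 with library size alone or without the time point block and 2 with no filter beyond 1 count, where *Plat* was called. Leaving out a library gave 0 to 2 members there, 2 to 4 at 12 h, 2 to 4 at 24 h, 1 to 4 at 48 h and 1 to 4 at 72 h against 0 h. At 0 h, at 96 h and for the differences between effects it gave 0. With no limit on the fold change *Plg* and *Spint2* were added at 24 h (6 members).

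Counts of all genes called moved more. In HKO against NULL mice they were 119, with 327 by DESeq2, 255 with no filter beyond 1 count, 264 with a replicate block and 54 to 297 leaving out a mouse. Between genotypes over 12-96 h they were 70, with 608, 45, 337 and 0 by DESeq2, library size alone, no filter and no time point block, and 9 to 194 leaving out a pool. At 96 h they were 64, with 331 by DESeq2, 41 by library size alone, 143 with each pool as its own group and 7 to 113 leaving out a library. Leaving out a library gave 2151 to 4487 genes at 12 h, 1177 to 3720 at 24 h, 507 to 2507 at 48 h and 514 to 2532 at 72 h. DESeq2 called 3 genes in LKO at 0 h, 21 for the LKO effect minus the HKO effect and 39 for the APAP effect in LKO minus that in control, and no filter gave 2 for each of the latter; leaving out a library gave up to 1, 3 and 3. The replicate block gave 0 members called in LKO and in HKO mice at 0 h, and samples of the same number did not deviate together. The cause of these shifts was not tested. Each time point after APAP rests on 1 pool per genotype, and levels under 0.253 CPM are at the limit of 3 counts.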
